A study of Sus scrofa with 8 samples.

Results

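The cytosolic ribosomal protein genes were examined in porcine T cells from colostrum and from blood. They were taken by symbol, as every gene that the array's annotation names RPL, RPS or RPLP followed by a digit, or RPSA, with the RPS6K kinases left out. This gave 38 genes of the 4560 named on the array, 21 of the large and 17 of the small ribosomal subunit, with 198 probes among them. Each gene was given the value of its brightest probe, the one with the highest mean over the 8 samples. All 38 genes passed the filter on dim probes that left 3742 genes for testing, and each was above background in all 8 samples.

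The samples were CD3+ mononuclear cells sorted from 2 sows of a Large White x Landrace cross. Colostrum, the first milk, and blood of each sow gave a CD8 single positive population (CD4- CD8+) and a double positive population (CD4+ CD8+). That makes 4 groups of 2 samples, 1 from each sow: colostrum CD8 single positive, colostrum double positive, blood CD8 single positive and blood double positive cells. The study was designed to set colostral against blood T cells within each population. The labels used here give no treatment and no age of the sows. The labels carry all colostrum cDNA on one dye, Alexa Fluor 3, and all blood cDNA on another, Alexa Fluor 5, so the source of the cells and the dye cannot be told apart in any difference between colostrum and blood below. In bulk RNA of a sorted population, fewer cells with a transcript and less of it per cell cannot be told apart either.

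Ribosomal proteins join the ribosomal RNAs to form the large and small subunits of the ribosome, which makes all cellular protein in the cytosol. Their mRNAs are among the most abundant of any cell and share a pyrimidine-rich start, through which the kinase mTOR controls how strongly they are translated. In T cells, ribosome production rises as the cells leave rest, grow and divide.

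Raw channel medians, before normalization, were 118 to 133 units for colostrum and 27 to 34 units for blood, and the negative controls had medians of 68 to 81 and of 1 to 8 units. The raw median over the ribosomal protein genes was 5145 to 8396 units in colostrum and 13483 to 20072 units in blood. Levels are given on the log2 scale after quantile normalization, and each difference is colostrum minus blood on that scale unless another direction is named. The sort was visible: CD8B, the beta chain of CD8, was above background in 4 samples, all CD8 single positive, and CD4 in 3 samples, all double positive. CD3D, a chain of the T cell receptor complex, was at 11.42 to 12.43 in all 8. Markers of other cells also differed between the sources. Of the red cell and platelet list (5 genes, 2 on the array) 1 gene was tested, the platelet gene GP9. Its linear level was 234 to 253 units in colostrum CD8 single positive and 207 to 366 in colostrum double positive cells, against 546 to 550 and 653 to 750 in the same populations of blood. The summed level of the monocyte and macrophage list (3 of 5 genes tested) was 286 and 293 in colostrum and 417 and 448 in blood, without overlap, for CD8 single positive cells. For double positive cells it was 546 and 232 in colostrum and 243 and 312 in blood. Of its genes, LYZ was lower in colostrum without overlap in both populations and CD14 in CD8 single positive cells. LYZ was above background in only 2 of the 8 samples, both of blood CD8 single positive cells, and CD14 in 4. All LYZ values of double positive cells lay below background, so their separation carries little weight. CD79A, the B cell gene tested of 4 listed, overlapped in CD8 single positive cells, at 197 and 434 in colostrum and 451 and 372 in blood. In double positive cells it was at 96 and 716 in colostrum and 79 and 85 in blood, a log2 difference of 1.68. That difference rested on sow 2, with 3.08 against 0.28 in sow 1. Of the double positive samples, only colostrum of sow 2 had CD79A above background. The summed levels of neutrophil genes (3 of 3) were 215 to 398 in colostrum and 225 to 1540 in blood, and those of mammary epithelial genes (6 of 7) 419 to 3206 and 472 to 902, both with overlap within each population. The macrophage gene CD163 and the casein genes CSN1S1 and CSN2 were above background in 3, 3 and 2 of the 8 samples. The part of these markers in the differences below was not tested.

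The probes of the ribosomal protein genes were bright in every sample. Of the 50 brightest named genes by mean level, 18 were ribosomal protein genes, and of the 100 brightest, 28. In single samples, 15 to 18 of the top 50 in colostrum and 19 to 20 in blood belonged to them. The median level over the 38 genes was 13.47 and 13.31 in colostrum CD8 single positive and 13.08 and 13.27 in colostrum double positive cells (sow 1 and sow 2), against 13.87 and 13.66 in blood CD8 single positive and 13.58 and 13.80 in blood double positive cells. All 4 colostrum samples lay below all 4 blood samples in this median. Probe brightness depends on the probe as well as on the transcript, so the order of the genes is one of probes and not of transcript amounts.

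The brightest probes belonged to RPS24, RPS12 and RPL18, and the dimmest to RPL7L1, RPL26L1 and RPSA. RPL7L1 and RPL26L1 are paralogs of RPL7 and RPL26, and another paralog, RPL36AL, lay mid-range, at 12.93 to 13.54 over the samples. RPL26L1 was at 9.80 and 10.40 in colostrum CD8 single positive and 9.26 and 10.46 in colostrum double positive cells, against 10.67 and 10.22 in blood CD8 single positive and 10.73 and 10.31 in blood double positive cells. Its groups overlapped in every comparison. Near-identical copies of ribosomal protein genes are common in mammalian genomes, and a probe may read such copies together with its gene. The gene that the platform names RPS4 carries a transcript that the current pig annotation names RPS4X. RPLP0, RPLP2, RPL13A, RPS19 and RPS27A were not on the array under these symbols and are not analysed here.

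**Figure D1:**
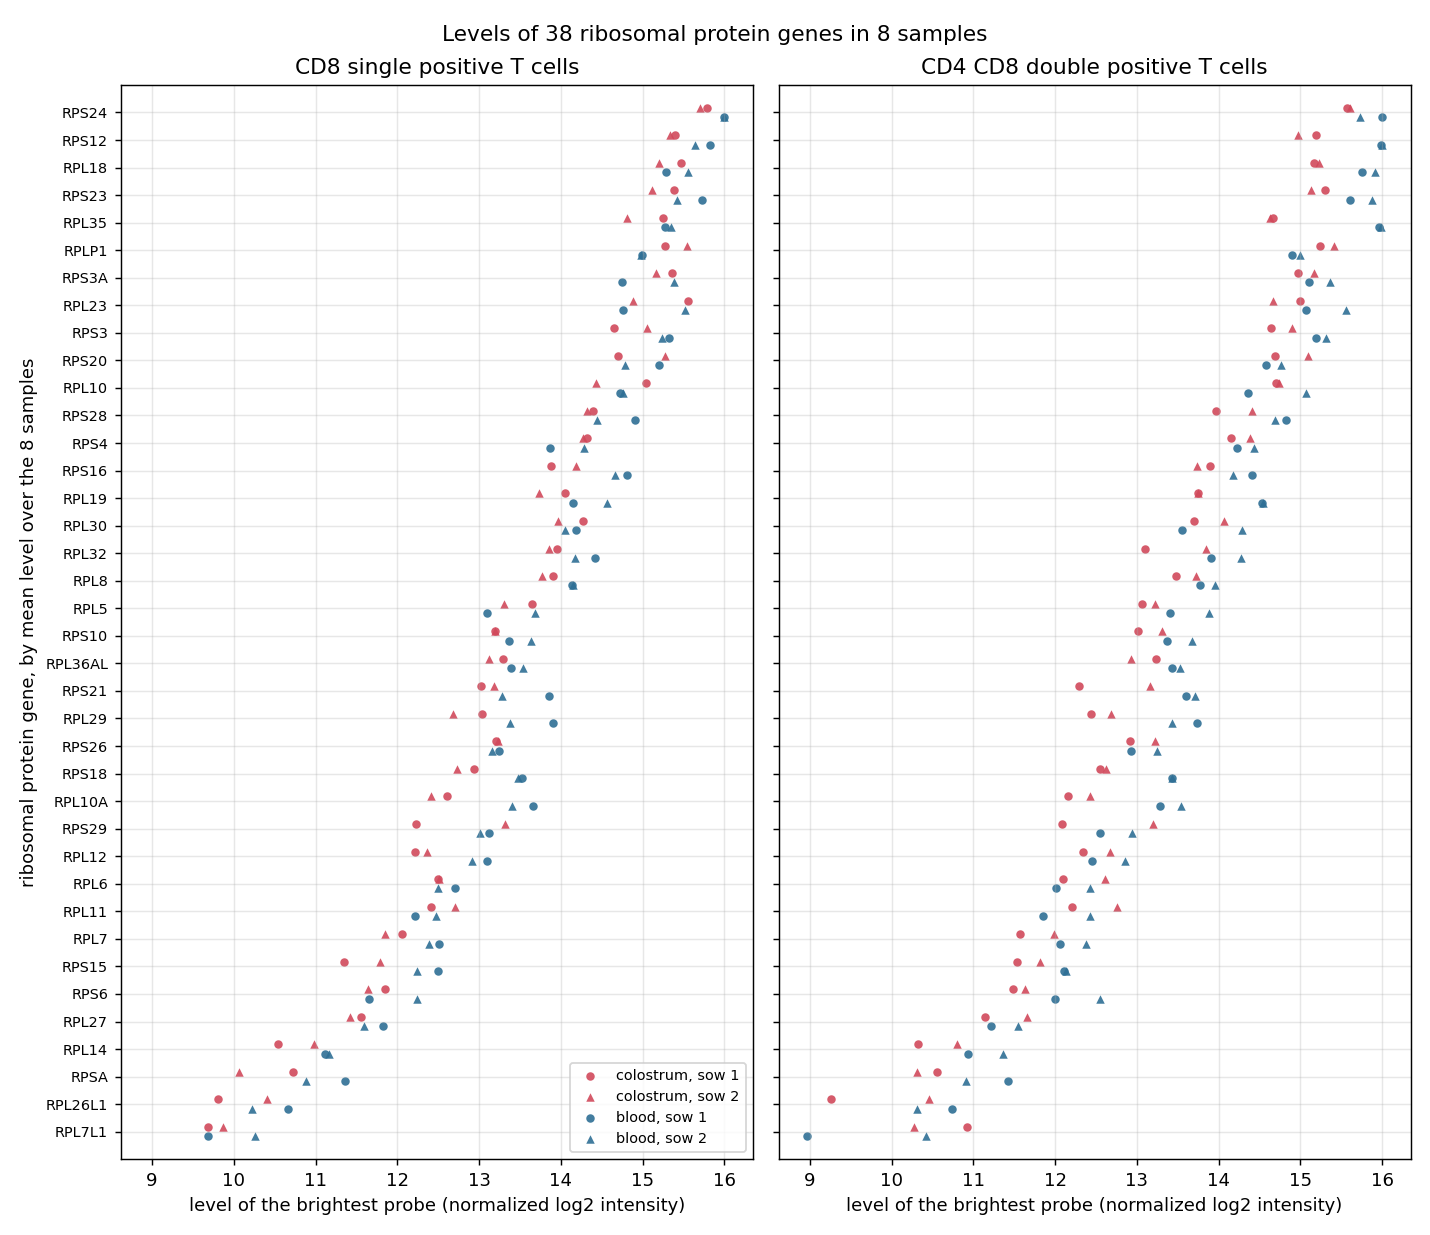
Normalized log2 intensity of the brightest probe (x axes) of each of the 38 ribosomal protein genes (rows, ordered by mean level) in CD8 single positive (left) and double positive T cells (right). Red marks are colostrum and blue marks blood, circles sow 1 and triangles sow 2; red marks lie left of blue for most genes, with both colostrum samples below both blood samples in 22 genes on the left and 24 on the right.

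In CD8 single positive cells, 31 of the 38 genes were lower in colostrum than in blood on average, against 53.3% of all genes tested. The median difference over the 38 genes was -0.30, with -0.25 in sow 1 and -0.33 in sow 2, while the median over all 3742 genes was -0.06. Both colostrum samples lay below both blood samples in 22 ribosomal protein genes (57.9%), where 21.5% of all genes did so, and above them in 1 gene, RPLP1, where 16.3% of all genes did so. No single gene passed the test. limma called 0 of the 38 and 0 of the 3742 genes (0%) at an adjusted p under 0.05, and the lowest adjusted p of a ribosomal protein gene was 0.643. At an unadjusted p under 0.05 there was 1 ribosomal protein gene, RPL10A, against 290 of all genes (7.75%). The standard errors of the 38 differences were 0.44 to 0.59, and 29 differences were smaller than their own standard error.

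RPL10A, a protein of the L1 stalk through which spent tRNA leaves the ribosome, had the lowest difference. It was at 12.61 and 12.41 in colostrum CD8 single positive cells, against 13.66 and 13.40 in those of blood. Both colostrum samples were below both blood samples, with differences of -1.06 within sow 1 and -0.99 within sow 2. The group means were 12.51 ± 0.14 in colostrum and 13.53 ± 0.19 in blood (SD, n = 2 each). The difference was -1.03 ± 0.46 (SE of the limma fit), a fold of 2.04 on the linear scale, with a limma adjusted p of 0.643.

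RPS15, a protein of the small subunit's head, was at 11.35 and 11.79 in colostrum and 12.50 and 12.24 in blood. Its difference was -0.80 ± 0.46, with -1.15 in sow 1 and -0.45 in sow 2, so the size rested more on sow 1. RPL29, a large subunit protein found only in eukaryotes, was at 13.03 and 12.69 in colostrum and 13.90 and 13.38 in blood, a difference of -0.78 ± 0.47. RPSA, a small subunit protein that is also known as a laminin receptor, was at 10.72 and 10.07 in colostrum and 11.37 and 10.88 in blood (-0.73 ± 0.50). RPL12, which sits at the base of the stalk that recruits elongation factors, was at 12.22 and 12.36 in colostrum and 13.10 and 12.91 in blood (-0.72 ± 0.46). In none of these genes did the groups overlap, and their limma adjusted p-values were 0.765 to 0.808.

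Only 2 genes were higher in colostrum in both sows, against 24.8% of all genes. RPLP1, an acidic protein of that stalk, was at 15.27 and 15.54 in colostrum and 14.99 and 14.98 in blood, a difference of 0.42 ± 0.45 with no overlap. RPL11, which with RPL5 can bind the ubiquitin ligase MDM2, was at 12.41 and 12.71 in colostrum and 12.22 and 12.47 in blood, a difference of 0.22 ± 0.49 with overlapping groups. Both directions belong to the brightest probe and to quantile normalization or cyclic loess: with channels scaled to their 75th percentile all 38 genes were lower in colostrum, and the medians over the probes of RPLP1 and of RPL11 were below 0 as well. RPL5 differed by 0.08 and RPS6, the substrate of the S6 kinases, by -0.21, each with overlapping groups. RPS3, which lies at the entry channel for mRNA, was at 14.65 and 15.06 in colostrum and 15.32 and 15.24 in blood, a difference of -0.42 with no overlap.

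In double positive cells, again 31 of the 38 genes were lower in colostrum on average, against 55% of all genes. The median difference was -0.46, with -0.44 in sow 1 and -0.39 in sow 2, and the median over all genes was -0.09. It was -0.28 without the colostrum double positive sample of sow 1 and lay between -0.54 and -0.36 without any other sample of this comparison. Both colostrum samples lay below both blood samples in 24 genes (63.2%), against 23% of all genes, and above them in 1, again RPLP1, against 14.7%. In 28 genes colostrum was the lower in both sows (73.7%, against 32.1%). limma called 0 of the 38 and 0 of all genes (0%), with a lowest adjusted p of 0.474 among ribosomal protein genes. At an unadjusted p under 0.05 there were 2, RPL35 and RPL10A, against 317 of all genes (8.47%).

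RPL35, a protein at the exit of the tunnel for the nascent chain, had the lowest difference. It was at 14.66 and 14.63 in colostrum double positive cells, against 15.96 and 15.99 in those of blood, where its probe was saturated on both arrays. The difference, -1.33 ± 0.45, is therefore a bound within quantile normalization, where RPL35 was at least 2.52-fold lower in colostrum (limma adjusted p = 0.474). Under cyclic loess normalization the difference was smaller, at -0.71, so the bound does not hold across scalings. RPL35 has 1 probe on the array, so no other probe bears on it.

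RPL10A was again low, at 12.15 and 12.42 in colostrum against 13.28 and 13.55 in blood. The difference was -1.12 ± 0.46 (SE, n = 2 per group), with -1.13 in sow 1 and -1.12 in sow 2, a fold of 2.18 on the linear scale with a limma adjusted p of 0.542. RPL29 was at 12.44 and 12.68 in colostrum and 13.73 and 13.43 in blood (-1.02 ± 0.47). RPL10A, RPL29 and RPL35 were the 3 ribosomal protein genes at least 2-fold lower in this comparison (7.89%), where 10.6% of all genes were. In CD8 single positive cells RPL10A was the only one, against 8.55% of all genes. With quantile normalization most of the 38 genes thus differed by less than 2-fold, but under 75th percentile scaling the median gene was lower by more, at -2.06 and -2.44.

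RPS21, a small subunit protein, was at 12.29 and 13.16 in colostrum and 13.60 and 13.71 in blood (-0.93 ± 0.51), and the sows differed, with -1.31 in sow 1 and -0.55 in sow 2. RPS12, a protein of the small subunit's head, was at 15.19 and 14.97 in colostrum and 15.99 and 16.00 in blood, saturated on both blood arrays. It was at least 1.88-fold lower under quantile normalization. RPS18 was at 12.55 and 12.62 in colostrum and 13.43 and 13.43 in blood, a difference of -0.85. RPSA differed by -0.73, as in the other population, and RPS6, at 11.56 ± 0.10 in colostrum and 12.28 ± 0.39 in blood (mean ± SD, n = 2 each), by -0.72. None of these groups overlapped.

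The genes higher in colostrum double positive cells in both sows were RPLP1 (0.39 ± 0.45), RPL11 (0.35 ± 0.49), RPS20 (0.22 ± 0.48) and RPL6 (0.14 ± 0.47), 4 of 38 where 22.6% of all genes were. Under 75th percentile scaling these 4 genes were lower in colostrum instead. RPLP1 was at 15.25 and 15.42 in colostrum and 14.90 and 14.99 in blood, the only one of them whose groups did not overlap. The largest positive difference, 0.90 ± 0.59, was that of the paralog RPL7L1, whose sows disagreed: it was at 10.92 and 10.28 in colostrum and 8.97 and 10.43 in blood. RPL5 differed by -0.50 and RPS3 by -0.49, both without overlap.

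**Figure D2:**
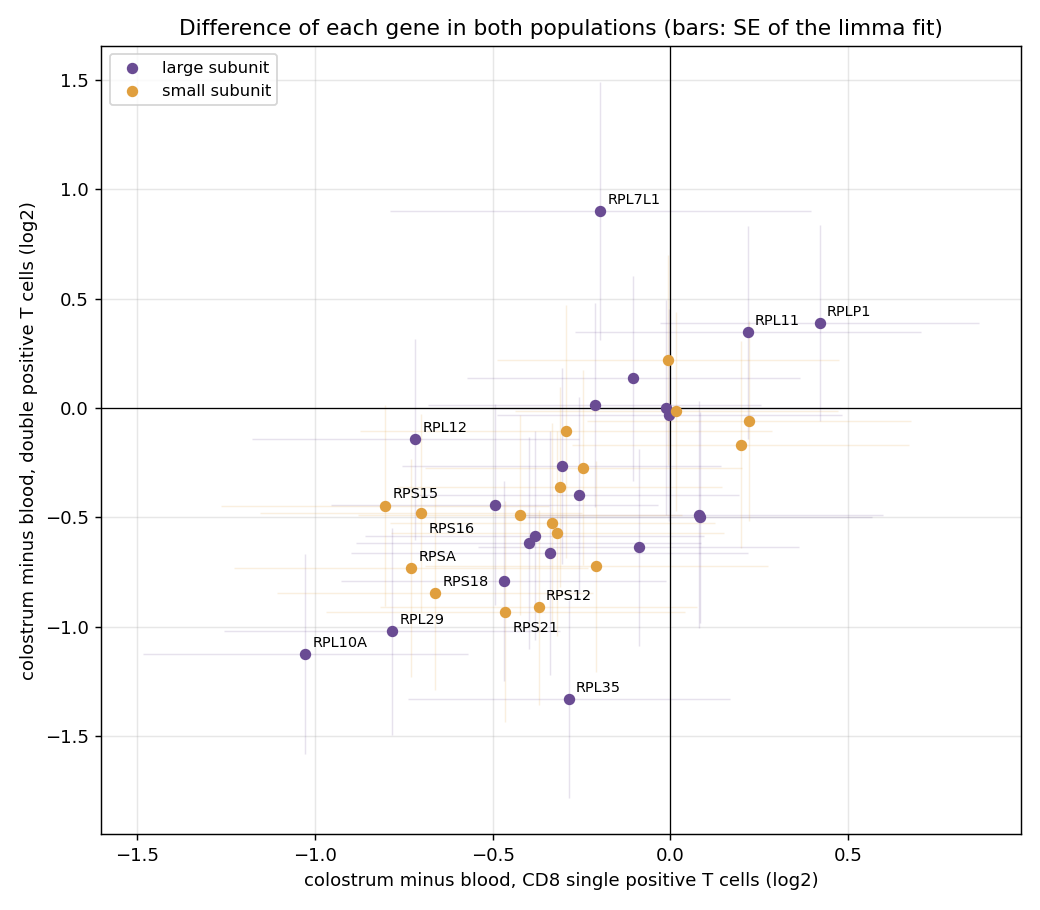
Difference between colostrum and blood (log2) of each ribosomal protein gene in CD8 single positive (x axis) and double positive T cells (y axis), with bars for the standard error of the limma fit; purple points are large subunit genes and orange points small subunit genes. Most points, 26 of 38, lie below 0 on both axes, with RPL10A and RPL29 low on both axes, RPL35 low on the y axis and RPL7L1 alone at the top.

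Across both populations, 26 genes were lower in colostrum in both comparisons (68.4%, against 34.9% of all genes) and 2, RPLP1 and RPL11, were higher in both (5.26%, against 26.5%). In 20 genes the groups did not overlap, with colostrum lower, in each of the populations (52.6%, against 9.22%), and with colostrum higher in 1, RPLP1 (2.63%, against 5.21%). In 21 genes colostrum was the lower in all 4 pairs of samples of one sow and population, against 14.8% of all genes. Both differences correlated with each other over the 38 genes with Pearson's r of 0.59 and Spearman's rho of 0.62, and over all tested genes with r of 0.40. The points of this correlation are genes and no independent replicates, and both comparisons share the dyes, the probes and the 2 sows, but no sample.

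Both subunits held genes of this kind. Of the 21 large subunit genes, 11 were lower without overlap in CD8 single positive and 12 in double positive cells (21.5% and 23% of all genes were), with medians of -0.26 and -0.44. Of the 17 small subunit genes, 11 and 12 were lower without overlap, with medians of -0.32 and -0.48. The difference between the subunits was not tested. Outside this pattern, RPL10, RPL30 and RPS26 lay between -0.03 and 0.02 in both populations by their brightest probes, with overlapping groups.

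Saturation bears on the bright end of the list and only on blood. The brightest probes of 5 ribosomal protein genes, RPS24, RPS12, RPS23, RPL18 and RPL35, were saturated in at least 1 blood channel, with 1 to 5 of them per blood channel and 0 in each colostrum channel. Among CD8 single positive cells RPS24 was at 15.79 and 15.71 in colostrum and 16.00 and 16.00 in blood, at least 1.19-fold lower in colostrum by this probe, with both blood arrays saturated. Its other probes differed: the median over 5 probes was 0.15, with 3 higher in colostrum, 2 of them without overlap. In double positive cells RPS24 was at least 1.21-fold lower by its brightest probe (median over probes -0.10), RPL18 at least 1.55-fold and RPS23 at least 1.44-fold. The limma adjusted p-values of these bounds were 0.802 to 0.946. Saturated probes take their levels by rank under quantile normalization, so every bound given here is approximate and holds for that scaling only. With saturated probes replaced by the next brightest, the medians over 37 genes were -0.29 in CD8 single positive and -0.44 in double positive cells; RPL35, the lowest gene in double positive cells, has no other probe and dropped out.

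The other probes of these genes gave a second reading of the same samples. Of the 198 probes, 186 were above background in all 8 samples and 12 were not. In CD8 single positive cells 158 of the 186 (84.9%) were lower in colostrum, against 51.2% of the 2278 other named probes above background, and in double positive cells 165 (88.7%), against 57.7%. Probes of one gene share their transcript and so are not independent. Counting genes with a single probe too, in 23 genes every such probe was lower in CD8 single positive cells and in 25 genes in double positive cells. The gene's median over its probes was below 0 in 35 and 34 of 38 genes, compared with 31 and 31 by the brightest probe.

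RPL10A gave one direction over many probes: its 9 probes differed by -1.23 to -0.73 in CD8 single positive and -1.51 to -0.89 in double positive cells, and for each of them both colostrum samples lay below both blood samples. The 6 probes of RPSA differed by -1.38 to -0.50 and -1.53 to -0.73, likewise without overlap. The 7 probes of RPL32, at medians of -0.48 and -0.62, and the 3 of RPL29, at -0.64 and -1.05, had no overlap in either population.

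For other genes the brightest probe stood apart from the rest, in either direction. RPS28 differed by -0.32 and -0.57 by its brightest probe, and its median over 3 probes was 0.26 and 0.08, with 2 higher in each population. RPLP1 had 4 probes above background: the brightest differed by 0.42 and 0.39, and the other 3 by -0.27 to -0.10 in CD8 single positive and -0.53 to -0.21 in double positive cells. The brightest RPL11 probe differed by 0.22 and 0.35, and the gene's median was -0.15 and -0.26. RPL6 differed by 0.14 in double positive cells by its brightest probe and by a median of -0.88 over 13 probes, of which 12 were lower. RPL10 was near 0 by its brightest probe and had medians of -0.40 and -0.44 over 5. RPL5 had a median of -0.25 in CD8 single positive cells with 17 of 18 probes lower, and -0.87 in double positive cells with all 18 lower and 16 without overlap. RPS20 differed from these genes, with 6 of 7 probes higher in double positive cells (median 0.22) and 3 of 7 in CD8 single positive cells.

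The size of the difference varied with the level of the probe. Ribosomal protein probes with a mean level of 9 to 11 had median differences of -0.51 in CD8 single positive and -0.86 in double positive cells (40 probes), against -0.01 and -0.16 for 794 other probes of that range. At levels of 12 to 13 the medians were -0.28 and -0.46 (42 probes), against -0.15 and -0.27 (115 probes). At 14 and above they were -0.09 and -0.35 (31 probes), against -0.02 and -0.30 (57 probes), so that at the bright end ribosomal protein probes lay close to other probes. The part of saturation in this was not tested.

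**Figure D3:**
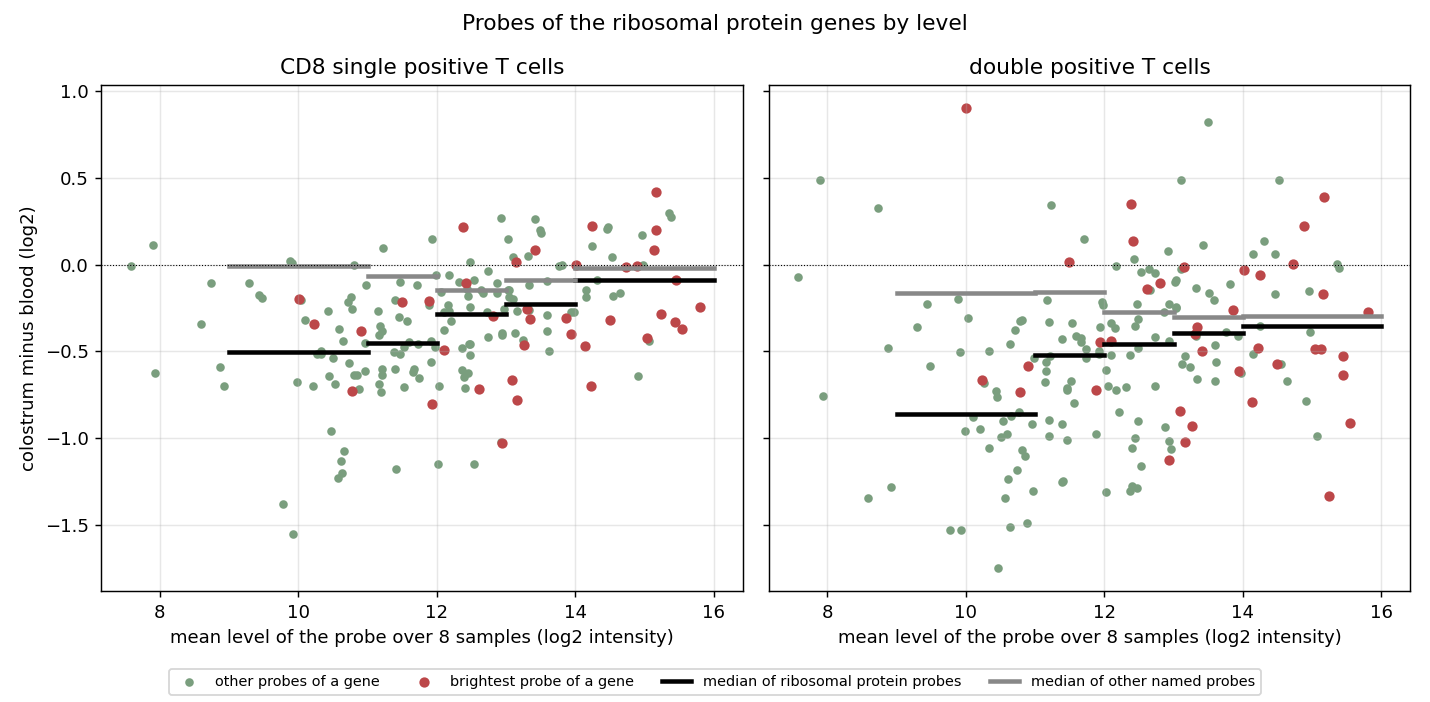
Difference between colostrum and blood (log2, y axes) against mean level (x axes) for the 186 ribosomal protein probes above background in all samples, in CD8 single positive (left) and double positive T cells (right). Red points are the brightest probe of each gene, green points its other probes; black bars are medians of these probes per range of level and grey bars those of other named probes, and the black bars lie farthest below the grey ones at levels of 9 to 11.

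How far the genes lay below blood in absolute terms depended on the scaling of the channels. With each channel scaled to its 75th percentile, the median of the 38 genes was -2.06 in CD8 single positive and -2.44 in double positive cells, with all 38 lower in each. Under this scaling limma called 30 of the 38 genes lower in double positive cells (78.9%) and 0 higher, against 274 genes lower (7.4%) and 7 higher of all 3704 tested. In CD8 single positive cells it called 0 of the 38, against 0.054% of all genes. Bright genes of other kinds shifted too: the 36 other genes at or above the median level of the 38 had medians of -1.75 and -1.85, and 15 of them were called lower in double positive cells. With the negative controls subtracted first, an alternative added after the data were seen, the medians were -1.53 and -1.87, and 9 and 29 genes were called lower, against 1.91% and 8.87% of all genes and 6 and 15 of the 36 bright genes. Cyclic loess gave -0.22 and -0.37 with no calls.

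Set against the 36 other bright genes, the values varied less with the scaling. These genes were brighter than the 38, with median levels of 14.27 to 14.59 per sample, and among probes at 14 and above the medians of both kinds lay close together, as given above. The ribosomal protein median lay below that of the 36 bright genes by 0.33 and 0.52 under quantile normalization, by 0.39 and 0.75 under cyclic loess and by 0.31 and 0.59 under 75th percentile scaling. Saturation was not limited to the 38: 16 named genes had a saturated brightest probe, 5 of them ribosomal protein genes. With saturated probes replaced, the ribosomal protein median minus that of 32 bright genes was -0.38 and -0.55. With the mean of all probes, minus that of 43 bright genes, it was -0.18 and -0.44. The ribosomal protein median was below 0, and below the median of all genes, under each of the 4 scalings. Its distance from the median of all genes was smaller under cyclic loess, at -0.10 and -0.17, than under quantile normalization, at -0.24 and -0.37. These medians were not tested, since the list was chosen with results of these data known.

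**Figure D4:**
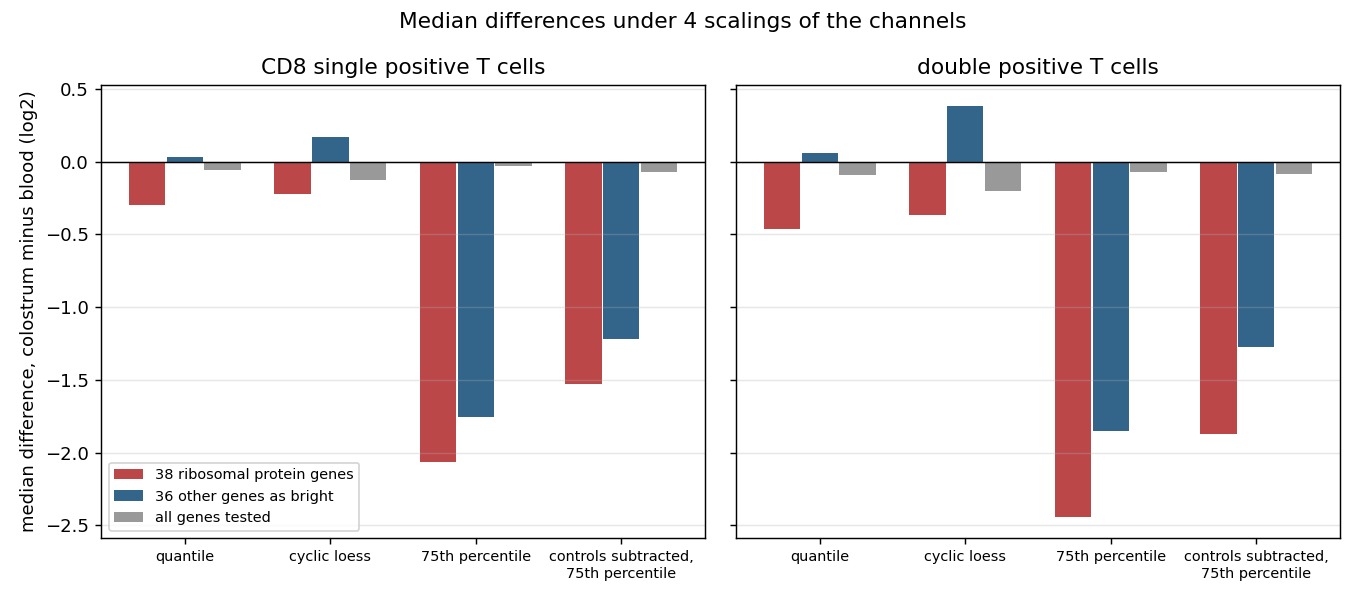
Median difference between colostrum and blood (log2, y axes) under 4 scalings of the channels (x axes) in CD8 single positive (left) and double positive T cells (right). Red bars are the 38 ribosomal protein genes, blue bars the 36 other genes at or above their median level and grey bars all genes tested; the red bar is the lowest of each group of 3, and both red and blue bars fall below -1.2 under the scalings by the 75th percentile.

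The difference between the populations in this contrast was small for most genes. It was below 0 in 26 of the 38 genes (68.4%, against 53.2% of all genes). Its median over the 38 genes was -0.08 (double positive minus CD8 single positive), against -0.06 over all genes, and it depended on single samples. It was 0.03 without the colostrum double positive sample of sow 1 and -0.21 without that of sow 2. Without the blood double positive sample of sow 1 or the colostrum CD8 single positive sample of sow 2 it was -0.19, and without the blood double positive or the blood CD8 single positive sample of sow 2 it was -0.02 and -0.03. limma called 0 of the 38 and 0 of all genes (0%), with a lowest adjusted p of 0.997. At an unadjusted p under 0.05 there were 0 ribosomal protein genes and 88 of all genes (2.35%). The most negative differences were those of RPL35 (-1.05 ± 0.64, a bound), RPL5 (-0.58 ± 0.68) and RPL23 (-0.57 ± 0.73), and the most positive those of RPL7L1 (1.10 ± 0.84), RPL12 (0.57 ± 0.65) and RPS15 (0.36 ± 0.65). RPL7L1 rested on sow 1, with 1.95 against 0.25 in sow 2. These standard errors are as large as or larger than the differences in all but RPL35 and RPL7L1.

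Double positive cells were also set against CD8 single positive cells within each source, where every sample carries the same dye. Within colostrum, 34 of the 38 genes were lower in double positive cells on average, against 51.8% of all genes, with a median of -0.16. This was not particular to them. Of a list of 17 other highly expressed genes, among them ACTB and GAPDH, 15 were lower too (median -0.30), as were 3 of 3 elongation factors (median -0.19). The 36 other bright genes had a median of 0.01. The median of the 38 genes was -0.29 under 75th percentile scaling and -0.23 with negative controls subtracted first. The sows differed: the median was -0.30 in sow 1 and 0.00 in sow 2, and without the colostrum double positive sample of sow 1 it was -0.02, with 20 genes lower, while without that of sow 2 it was -0.29. Groups did not overlap, with double positive cells lower, in 9 genes (23.7%, against 18% of all genes). limma called 0 of the 38 and 0 of all genes (0%), with a lowest adjusted p of 0.864 and, at an unadjusted p under 0.05, 0 ribosomal protein genes and 267 of all (7.14%).

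RPL32 had the lowest difference within colostrum (-0.43 ± 0.48), at 13.10 and 13.85 in double positive and 13.95 and 13.86 in CD8 single positive cells, nearly all of it from sow 1. RPL23 (-0.39 ± 0.52), RPL35 (-0.38 ± 0.45), RPS21 (-0.38 ± 0.51) and RPL5 (-0.33 ± 0.48) followed. RPL7L1 was the only gene higher in double positive cells without overlap (2.63%, against 16% of all genes). It was at 10.92 and 10.28 against 9.68 and 9.86 in CD8 single positive cells, a difference of 0.83 ± 0.59 (limma adjusted p = 0.864). RPL12 (0.22) and RPS15 (0.11) were the only others higher in both sows, 3 genes with RPL7L1 (7.89%, against 24.3% of all genes). RPS15 was lower (-0.07) under 75th percentile scaling.

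Within blood, 21 of 38 genes were lower in double positive cells (55.3%, against 47.8% of all genes), with a median of -0.04. The median was 0.04 without the blood double positive sample of sow 1, -0.09 without that of sow 2, -0.11 without the blood CD8 single positive sample of sow 2 and 0.05 under 75th percentile scaling. Groups did not overlap with double positive cells lower in 10 genes (26.3%, against 15.7%) and with double positive cells higher in 3 (7.89%, against 17.8%). RPL35 was highest, at 15.96 and 15.99 in double positive and 15.28 and 15.35 in CD8 single positive cells. It was at least 1.58-fold higher in the double positive cells under quantile normalization, with both double positive arrays saturated. RPL18, at least 1.33-fold higher, was saturated there too. RPS12 differed by 0.25, with both double positive arrays and 1 CD8 single positive array saturated, so this is no bound, and it was lower under 75th percentile scaling (-0.04) and cyclic loess (-0.13). RPS6 averaged 12.28 ± 0.39 in double positive and 11.95 ± 0.42 in CD8 single positive cells (SD, n = 2 each), a difference of 0.33 ± 0.48 with overlapping groups, and RPS4, a small subunit protein, differed by 0.25 ± 0.46. The lowest were RPS16 (-0.44 ± 0.45), RPL6 (-0.39 ± 0.47), RPL12 (-0.36 ± 0.46), RPS20 (-0.33 ± 0.48) and RPL27 (-0.32 ± 0.47). limma called 0 of the 38 and 0 of all genes (0%), with a lowest adjusted p of 0.952 and, at an unadjusted p under 0.05, 0 ribosomal protein genes and 198 of all (5.29%).

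**Figure D5:**
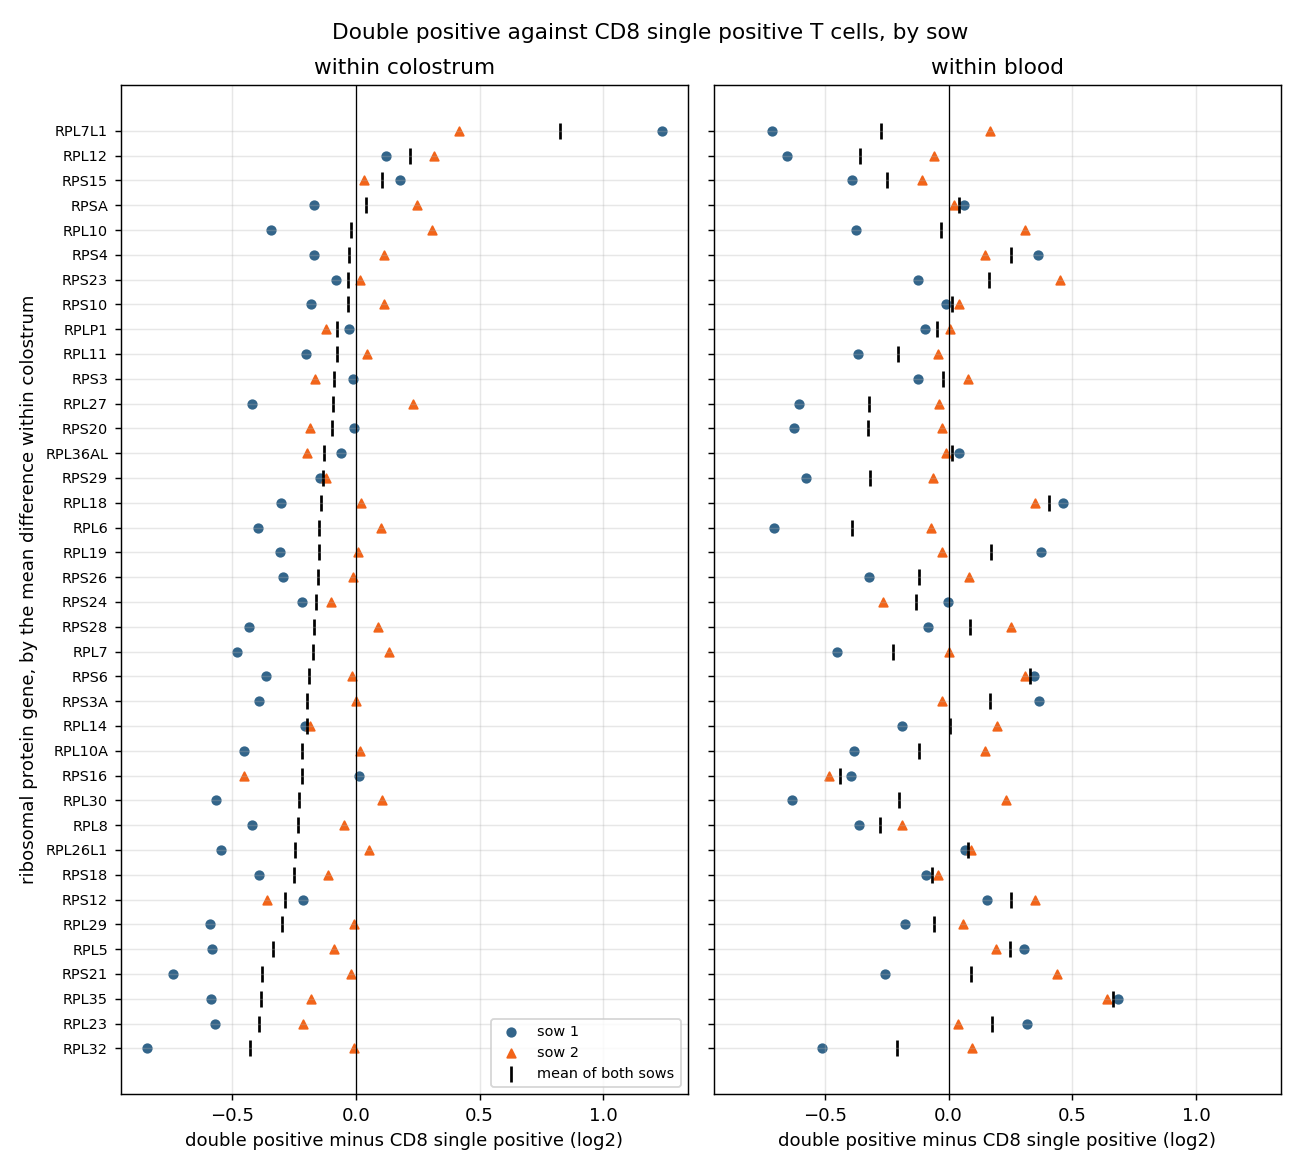
Double positive minus CD8 single positive T cells (log2, x axes) for each ribosomal protein gene (rows, ordered by the mean difference within colostrum), within colostrum (left) and within blood (right). Blue circles are sow 1, orange triangles sow 2 and black ticks the mean of both; on the left the circles lie mostly below 0 and the triangles scatter about it, and RPL7L1 stands to the right in both sows.

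The sows were compared within each group. The median absolute difference between sow 2 and sow 1 was 0.24 in colostrum CD8 single positive, 0.28 in colostrum double positive, 0.25 in blood CD8 single positive and 0.28 in blood double positive cells, against 0.58 to 0.66 over all genes and 0.17 to 0.24 over the 36 other bright genes. In the double positive cells 29 genes in colostrum and 31 in blood were higher in sow 2, against 15 in either source of CD8 single positive cells. The shares of all genes higher in sow 2 are not given here, so these counts cannot be read as particular to the ribosomal protein genes. RPS29, a small subunit protein, stood out. It was at 12.22 in sow 1 and 13.32 in sow 2 in colostrum CD8 single positive cells and at 12.08 and 13.20 in colostrum double positive cells. In blood it was at 13.13 and 13.01 in CD8 single positive and 12.55 and 12.94 in double positive cells. Colostrum of sow 2 was thus higher than that of sow 1 by 1.10 and 1.12, while blood differed by -0.12 and 0.39, and 2 further RPS29 probes had the same order in colostrum (11.66 and 12.61, then 10.83 and 11.95 in CD8 single positive cells). Only RPS29, RPL26L1 and RPL7L1 had a difference of 1 or more between sows in any group.

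Genes that work with the ribosome were read beside its proteins. Elongation factors share the pyrimidine-rich mRNA start, and 3 of the 8 listed were on the array. EEF1A1, which brings tRNA to the ribosome, was at 15.58 and 15.68 in colostrum and 15.99 and 15.99 in blood in the CD8 single positive population. In the double positive population it was at 15.37 and 15.50 in colostrum and 15.83 and 15.99 in blood. Blood values of 15.99 lie at the top of the scale, which limits the difference that EEF1A1 could show. EEF1G, a subunit of the factor that reloads it, differed by -0.83 and -1.02, with colostrum below blood in all samples. TPT1, which has the same kind of start, was at 15.98 to 16.00 in all samples, at the top of the scale, and could not show a difference. FAU, a fusion gene that encodes the small subunit protein RPS30, differed by -0.12 and -0.14, and NACA, which binds nascent chains at the ribosome, by 0.06 and -0.28.

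The other lists showed mixed shifts. In CD8 single positive cells the medians of the initiation factor, mitochondrial ribosomal protein and biogenesis lists lay below the -0.30 of the ribosomal protein genes. In double positive cells they lay above the ribosomal protein median of -0.46. The list of 13 genes with an EIF symbol holds initiation factors and also their regulators, among them the kinase EIF2AK3 and the repressor EIF4EBP1. The list of translation control kinases and targets holds EIF4EBP1 too. The EIF list had medians of -0.34 in CD8 single positive and -0.08 in double positive cells, with 8 and 7 lower. The cap-binding factor EIF4E differed by -0.72 and -2.05. The 7 mitochondrial ribosomal proteins had medians of -0.56 and -0.17, with 4 and 5 lower, but each was above background in only 1 to 6 of the 8 samples. The 12 ribosome biogenesis genes tested had medians of -0.36 and 0.03, with NOP2, a nucleolar RNA methyltransferase, at 1.83 and 0.65. Both medians fell between the values of POLR1E and POLR1A, which were above background in 4 and 0 of the 8 samples. PES1, TSR1 and NOP14 were above it in 3, 3 and 4, so these medians carry little weight. The 6 translation control kinases and targets had medians of 0.08 and 0.12, and RPS6KB1, the kinase of RPS6, was at 0.72 and 0.67. Of this list, MTOR, EIF4EBP1 and AKT1 were above background in only 2, 3 and 1 of the 8 samples. The 17 other highly expressed genes, among them ACTB and GAPDH, had a median of 0.45 in CD8 single positive cells and near 0 in double positive cells, with 14 and 8 higher. limma called no gene of these lists in either comparison. At an unadjusted p under 0.05, CD8 single positive cells had 1 higher gene of the EIF list, EIF2AK3 (1.96), and 1 lower, the scaffold factor EIF4G1 (-1.37), 2 lower mitochondrial ribosomal proteins, 1 higher biogenesis gene and 1 higher gene of the last list. Double positive cells had 2 lower genes of the EIF list and 2 lower mitochondrial ribosomal proteins, and no gene of the other lists.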

How the data were processed

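RNA of 8 sorted T cell samples was hybridised to 2-colour porcine oligonucleotide arrays. Per the labels' protocols, 10 ng of total RNA per sample was amplified with the Ovation PicoSL WTA V2 kit. The deposited scanner files hold one linear intensity per spot and channel; no source used here names the scanner or its background method. The deposited value table holds log2 values by the authors, and 90.8% of its values lay within 0.01 of quantile-normalized log2 intensities of the same arrays. That normalization (43603 probes, floor of 40.6 units, the mean normalized median of 153 negative controls) was therefore used here. A probe was above background beyond the 95th percentile of the negative controls, and saturated at a raw intensity of 65000. Of 10278 probes with 1 gene symbol, 6051 matched a RefSeq accession, which changed 446 symbols. The filter removed genes below the 30th percentile of mean level.

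limma 3.58.1 in R 4.3.3 fitted 4 group means, with Benjamini-Hochberg adjustment over 3742 genes; the test was run on simulated data first. The two-sided p-values rest on 4 residual and 5.40 prior degrees of freedom, and the number of arrays limits precision. Same-numbered samples come from the same sow per the labels, so the numbers pair the samples; over all genes the deviations of paired groups correlated with r of -0.01 to 0.29. Titles of the double positive samples also hold the words single positive. In each comparison the 5 highest and 5 lowest genes with one sign in both sows were named, with stalk proteins, paralogs, saturated genes, the 3 brightest and dimmest, and genes with known roles outside the ribosome. The genes and lists were chosen with earlier results of these data known. Alternatives were the sow as a block, other scalings, background corrections, floors and filters, other probe rules and leaving out each sample.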

Additional observations from a re-analysis of the deposited data

Results flagged for a closer look

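In 7 ribosomal protein genes the difference between double positive and CD8 single positive cells had one sign in colostrum and the opposite sign in blood, in both sows. The share of all genes with this pattern is not given here, so the count cannot be read as particular to these genes. The difference between the sources in this contrast (log2, colostrum minus blood) was -1.05 for RPL35, -0.58 for RPL5, -0.57 for RPL23, -0.54 for RPS12 and -0.52 for RPS6, all lower in double positive cells of colostrum and higher in those of blood. It was 0.57 for RPL12 and 0.36 for RPS15, both higher in double positive cells of colostrum and lower in those of blood. limma's test of this difference gave an adjusted p of 0.997 for each of the 7 genes. RPL35 was saturated in both blood double positive samples and in no sample set against them, so its value is a bound within quantile normalization. RPS12 was saturated in both blood double positive samples and in 1 blood CD8 single positive sample, so its value is no bound. The signs of RPS12 and RPS15 within one source changed with the scaling. No explanation was tested.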

How the results depend on the processing

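With the sow as a replicate block, limma called 0 of the 38 genes in each comparison, with lowest adjusted p-values of 0.57 in CD8 single positive and 0.44 in double positive cells (324 and 347 of all genes at an unadjusted p under 0.05). The block changed no call. Scaling to the 75th percentile moved the medians of colostrum against blood to -2.06 and -2.44 and their difference to -0.34, with 0 and 30 genes called (0.054% and 7.4% of all genes). Lower in colostrum under it were RPLP1 (-1.65 and -1.82), RPL11 (-1.48 and -1.67) and, in CD8 single positive cells, RPL5 (-1.73), and in double positive cells RPS20 (-2.03), RPL6 (-1.86) and RPL7L1 (-0.76). The differences between populations were then -0.052 for RPL6 and -0.014 for RPL27, with RPS15 at -0.068 within colostrum and RPS12 at -0.042 within blood.

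With negative controls subtracted first (chosen after seeing the data), the medians were -1.53 and -1.87 and their difference -0.31, with 9 and 29 calls (1.91% and 8.87% of all genes). RPLP1 was at -1.11 and -1.24, RPL11 at -0.96 and -1.12, RPL5 at -1.20 in CD8 single positive cells, and RPS20 (-1.45), RPL6 (-1.31) and RPL7L1 (-0.26) in double positive cells. RPL6 was at -0.019 between populations, RPS15 at -0.0049 within colostrum and RPS12 at -0.014 within blood. Cyclic loess gave medians of -0.22, -0.37 and -0.067, and RPS12 at -0.13 within blood.

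With the mean of all probes, the medians were -0.52 in double positive cells and -0.20 between populations. RPLP1 was at -0.16 and -0.20, RPL11 at -0.076 and -0.29, RPL5 at -0.27 and RPL7L1 at 0.10 in CD8 single positive cells, RPL6 at -0.72 in double positive cells, -0.35 between populations and 0.070 within blood, and RPL12 at -0.074 and RPS15 at -0.013 within colostrum. With the median over probes, also added later, the difference between populations was -0.17. RPLP1 was at -0.15 and -0.32, RPL11 at -0.15 and -0.26, RPL5 at -0.25 in CD8 single positive cells, RPL6 at -0.88 in double positive cells, -0.42 between populations and 0.10 within blood, and RPS15 at -0.013 within colostrum. Replacing saturated probes gave a median of -0.065 between populations.

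Leaving out single samples, the median of double positive cells was -0.54 to -0.28 and the difference between populations -0.21 to 0.035. Single genes whose sign changed ranged over -0.21 to 0.38 (RPL5), -0.50 to 0.086 (RPS6) and -0.49 to 0.092 (RPL7L1) in CD8 single positive cells, -0.12 to 0.39 (RPL6) in double positive cells, -0.011 to 0.49 (RPL6) and -0.033 to 0.49 (RPL27) between populations, and -0.11 to 0.32 (RPS15) and -0.81 to 0.059 (RPS21) within colostrum. Over all 20 alternatives, 1081 of 1136 values of named genes kept their direction. Part of these values could not change. The sow block leaves each difference as it was, and leaving out a sample of one population leaves the colostrum against blood difference of the other unchanged. The count is therefore no measure of how stable the directions were. The cause of these changes was not tested. Groups of 2 samples, saturation in blood and 1 dye per source limit all results.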
